A study of Caenorhabditis elegans with 24 samples.

Results

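The C40A11 genes described here, C40A11.6, C40A11.7 and C40A11.10, are 3 genes within 14034 bases of chromosome II of Caenorhabditis elegans. They are 3 of the 20167 genes whose antisense small RNA was measured and of the 19839 that passed a filter on low values, which all 3 passed. They were picked by sequence name, and the picking was based on measured siRNA levels in these same libraries, namely the fall of siRNA across heat that their working name states. All 12 generations of both genotypes were in view, so the differences of the 3 genes are given below as descriptions, with standard errors and no test. For C40A11.6 and C40A11.7 the name held. For C40A11.10 the data went against it, since its siRNA was higher after heat than before in both genotypes.

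The libraries came from a 12-generation experiment in which the wild type strain N2 (WT) and the hrde-1(tm1200) mutant were grown on OP50 bacteria. Animals spent 3 generations at 15 °C (15C-G1 to G3), then 6 at 23 °C (23C-G1 to G6), then 3 more at 15 °C (p15C-G1 to G3). The generations form 4 phases of 3, named I (15C-G1 to G3), II (23C-G1 to G3), III (23C-G4 to G6) and IV (p15C-G1 to G3). Synchronised whole young adults were collected, counting from release of the first larvae, at 114 to 120 h in the cool generations and at 50 to 55 h in the warm ones. Each genotype was 1 lineage with 1 library per generation, so the 24 libraries fall into 8 groups of 3 successive generations, and every SD and SE below measures the spread between successive generations of 1 lineage. The mutation is heritable and is carried by the whole animal.

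Endogenous siRNAs of the worm germ line are copied from mRNA by RNA-dependent RNA polymerases and lie antisense to the gene they target. Some are loaded into the nuclear Argonaute HRDE-1, which directs transcriptional repression and the histone mark H3K9me3 at the matching gene, and this silencing can be inherited over generations. Loss of HRDE-1 leads to a progressive loss of fertility at raised temperature. A change in siRNA over a gene can come from its mRNA template or from the siRNA itself, and whole animals do not tell fewer cells with siRNA from less siRNA per cell.

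Levels are RPKM, that is antisense reads scaled to mRNA length in kilobases and to sequencing depth. The size of the smallest steps in the values implied totals of 299434 to 1042932 reads per library. These are the totals that the scaling implies, and the paper gives a larger average of sequenced tags per small RNA library. On this scale 1 read was worth 1.45 to 5.04 RPKM over C40A11.7. Over C40A11.10 it was worth 5.02 to 17.48 RPKM at the length inferred below, which is uncertain. No value in the table was 0. siRNA over the hrde-1 gene itself was 250 to 321 RPKM in the 12 WT libraries and 119 to 164 RPKM in the 12 mutant libraries, with no overlap. In these 24 libraries C40A11.10 had the highest mean of the 3 genes with 513 RPKM (rank 203 of 20167), followed by C40A11.7 with 183 RPKM (rank 744) and C40A11.6 with 41.7 RPKM (rank 4279).

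In the WBcel235 annotation all 3 genes lie on the minus strand of chromosome II. C40A11.10 spans 2136552 to 2137329 and is annotated there as the microRNA gene mir-8199, with a hairpin precursor of 88 bases at 2136822 to 2136909 and a longer transcript of 3 exons. The authors counted over older WS190 transcripts, whose lengths were inferred from the values as 191 bases for C40A11.10, 761 for C40A11.6, 663 for C40A11.7 and 739 for C40A11.8. The WBcel235 exons of these genes add up to 407, 911, 888 and 384 bases, so the stretches counted are not exactly those described here. The inferred length of C40A11.10 is uncertain, since a longer one that would make its values whole reads was not tried. A mature microRNA has the same strand as its precursor, whereas the reads counted here were antisense to the transcript. C40A11.6 spans 2144292 to 2145666, is protein-coding and has 4 exons. C40A11.7 spans 2148732 to 2150585, is protein-coding and has 5 exons. Both protein-coding genes hold an exon of 249 bases followed by one of 115 bases. C40A11.10 is separated from C40A11.6 by 6962 bases, and C40A11.6 from C40A11.7 by 3065 bases. The next gene on the same strand, C40A11.8 (2150552 to 2150935), overlaps C40A11.7 by 34 bases, and C40A11.2 on the plus strand overlaps its other end by 61 bases.

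C40A11.7 carried the highest siRNA of the coding pair and showed the widest range. In WT its levels were 66.0, 104 and 87.8 RPKM in the first 15 °C generations, 105, 107, 44.7, 27.7, 8.25 and 17.7 RPKM at 23 °C, and 25.8, 41.9 and 46.8 RPKM after the return. In hrde-1 they were 795, 774 and 659 RPKM at first, 644, 419, 165, 60.9, 35.8 and 12.8 RPKM at 23 °C, and 25.1, 39.7 and 69.6 RPKM after the return. The mutant thus started far above WT, its own level fell in every 23 °C generation, and it was below WT by 23C-G6. In both genotypes 23C-G1 still lay near the first 15 °C level, and the lowest level came late at 23 °C, in G5 for WT and in G6 for the mutant.

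C40A11.6 followed the same course at a lower level. Its WT levels were 20.9, 30.2 and 30.0 RPKM at first, 33.0, 29.9, 14.2, 6.58, 10.1 and 5.94 RPKM at 23 °C, and 13.5, 17.6 and 36.7 RPKM after the return. The mutant had 143, 148 and 133 RPKM at first, 117, 86.7, 32.8, 19.0, 16.3 and 11.19 RPKM at 23 °C, and 6.66, 13.6 and 22.9 RPKM after the return. In WT the last library after the return, 36.7 RPKM, was above every earlier one, whereas no mutant library after the return came near the first 15 °C level. The low libraries rest on few reads, with inferred steps of 1.5 to 78.3 reads over C40A11.6 and 2.5 to 351.5 over C40A11.7.

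C40A11.10 moved the other way. WT had 385, 177 and 506 RPKM at first, 237, 371, 487, 900.4, 275 and 1738 RPKM at 23 °C, and 596, 642 and 760.2 RPKM after the return. In hrde-1 the levels were 165, 97.6 and 105 RPKM at first, 158, 288, 392, 1035, 420 and 1494 RPKM at 23 °C, and 546, 355 and 182 RPKM after the return. The order of the 23 °C libraries was nearly the same in both genotypes, with high values in G4 and G6 and a low one in G5. After the return the mutant values fell in each generation toward their first level, while the WT values lay above all 3 first values.

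**Figure D1:**
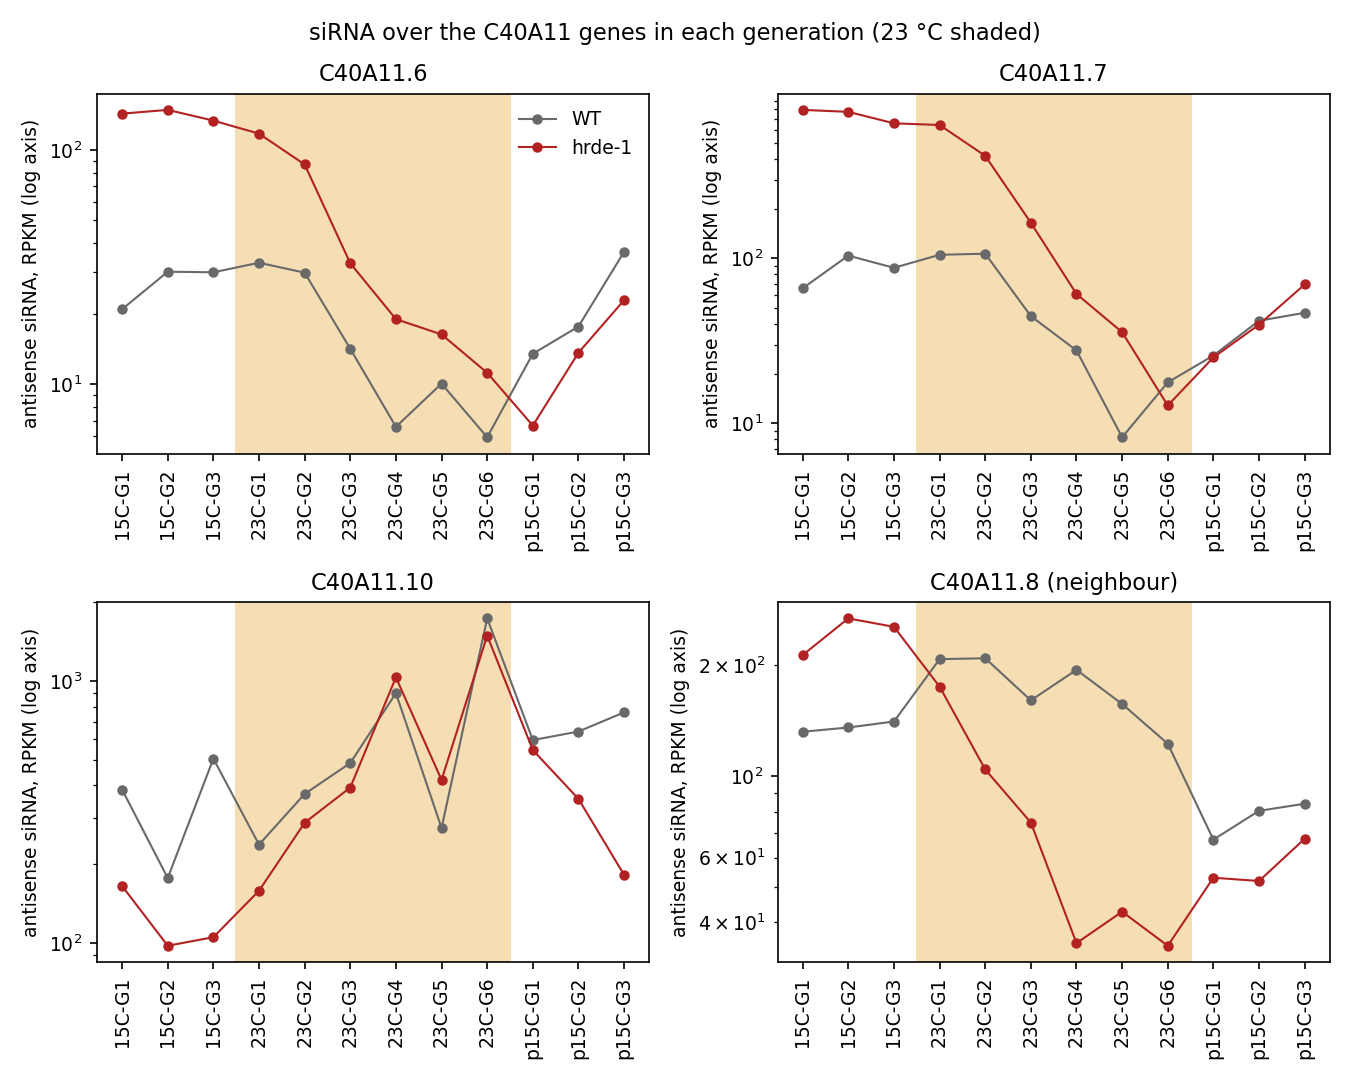
Antisense siRNA (RPKM, log axis) in each of the 12 generations, 1 library per point, for C40A11.6, C40A11.7, C40A11.10 and the neighbour C40A11.8, with WT in grey, hrde-1 in red and the 23 °C generations shaded. C40A11.7 fell from 644 RPKM in 23C-G1 to 12.8 RPKM in 23C-G6 in the mutant, whereas C40A11.10 reached 1494 RPKM there.

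The first comparison asked how siRNA differed between mutant and WT in each phase. Before heat (phase I) C40A11.7 was at 743 ± 73.0 RPKM (SD, n = 3) in the mutant and 85.9 ± 19.1 in WT, a ratio of 8.64. C40A11.6 was at 142 ± 7.51 (SD, n = 3) against 27.1 ± 5.32 RPKM, a ratio of 5.23. C40A11.10 was at 123 ± 36.9 (SD, n = 3) against 356 ± 166 RPKM, so WT was 2.91 times as high. For all 3 genes the phase I groups did not overlap. Over all tested genes 45.8% had phase I groups without overlap, and nothing is read from the count of the 3 chosen genes.

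On the scale of log2(RPKM + 1), the phase I difference of mutant minus WT was 3.12 ± 0.51 (SE) for C40A11.7, 2.36 ± 0.44 for C40A11.6 and -1.44 ± 0.54 for C40A11.10. In phase II the differences were 2.14 ± 0.51, 1.49 ± 0.44 and -0.42 ± 0.54 in the same order. These were smaller for each gene, and only the groups of C40A11.7 stood apart, where 16.0% of all tested genes had such groups. In phase III they were 0.89 ± 0.51, 0.95 ± 0.44 and 0.20 ± 0.54, with C40A11.6 alone free of overlap against 16.7% of all genes. In phase IV they were 0.15 ± 0.51, -0.64 ± 0.44 and -1.01 ± 0.54, with C40A11.10 alone free of overlap against 23.5%. The excess of siRNA in the mutant over the coding pair was therefore smaller in each later phase than in the one before it, and after heat neither gene was above WT beyond its SE.

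Counted by generation, the mutant library was above the WT library of the same generation in 9 of 12 generations for C40A11.6, in 9 of 12 for C40A11.7 and in 2 of 12 for C40A11.10. The 2 generations for C40A11.10 with more siRNA in the mutant were 23C-G4 and 23C-G5.

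**Figure D2:**
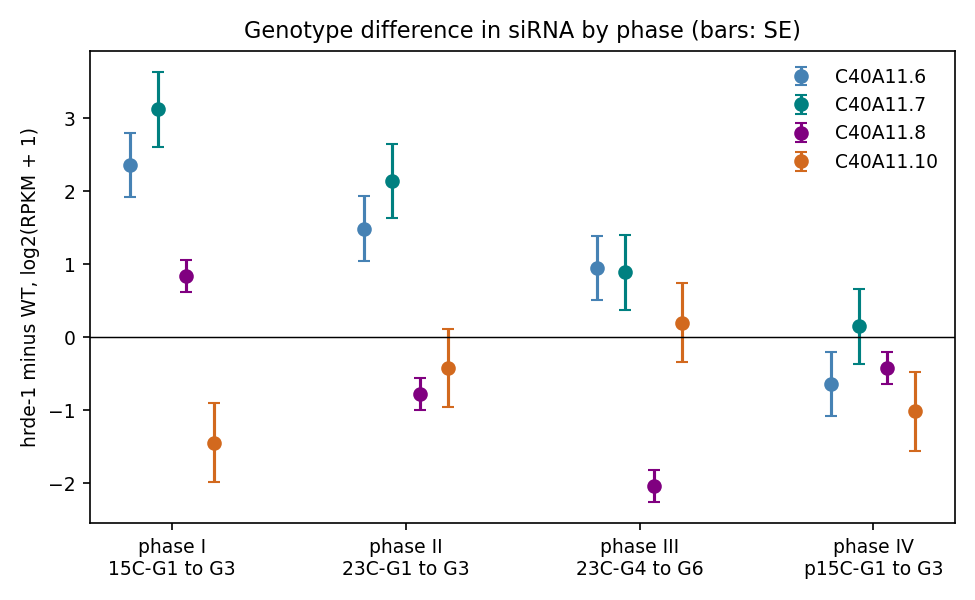
Difference of hrde-1 minus WT in log2(RPKM + 1) for each phase, with bars of 1 SE from the fit over all 24 libraries (3 libraries per genotype and phase). C40A11.6 and C40A11.7 start at 2.36 and 3.12 and end at -0.64 and 0.15, and C40A11.8 is lowest in phase III at -2.03.

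The second comparison set the generations after the return to 15 °C against the first ones, to show what lasted after heat. In the mutant C40A11.7 was 16.6 times lower after heat, at 44.8 ± 22.6 RPKM (SD, n = 3), and C40A11.6 was 9.84 times lower, at 14.4 ± 8.12 RPKM (SD, n = 3). In WT the same genes were 2.25 and 1.20 times lower, at 38.2 ± 11.01 and 22.6 ± 12.4 RPKM (SD, n = 3). The fits gave -4.14 ± 0.51 and -3.36 ± 0.44 for the mutant and -1.17 ± 0.51 and -0.35 ± 0.44 for WT (log2 difference ± SE, C40A11.7 first). The change in the mutant minus that in WT was -2.97 ± 0.73 for C40A11.7 and -3.01 ± 0.62 for C40A11.6. By these fitted values C40A11.7 had the lowest after-heat change in the mutant of the 19839 genes, and C40A11.6 was the 3rd from the lowest. The genes were picked for this fall, and the 2 are not fully separate measurements, as described below. Nothing is therefore read from these ranks.

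C40A11.10 was 2.95 times higher after heat in the mutant, at 361 ± 182 RPKM (SD, n = 3), and 1.87 times higher in WT, at 666 ± 84.8 RPKM (SD, n = 3). Its log2 differences were 1.45 ± 0.54 and 1.02 ± 0.54 (SE), and they differed between genotypes by 0.43 ± 0.77. The WT difference was 0.58 ± 0.58 without the 15C-G2 library of WT, its lowest. The groups before and after heat did not overlap in the mutant for any of the 3 genes, where 12.1% of all tested genes had such groups. In WT they did not overlap for C40A11.7 and C40A11.10 and overlapped for C40A11.6, beside 42.5% of all genes.

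The third comparison took the mean of 23C-G2 to G6 against the first 15 °C generations, leaving out 23C-G1, whose shift began in the embryo. In the mutant the log2 difference was -3.33 ± 0.78 (SE) for C40A11.7, -2.44 ± 0.53 for C40A11.6 and 2.31 ± 0.55 for C40A11.10. In WT it was -1.51 ± 0.78, -1.18 ± 0.53 and 0.88 ± 0.55. Each gene moved in 1 direction in both genotypes and farther in the mutant, by -1.82 ± 1.10, -1.26 ± 0.75 and 1.43 ± 0.77. The WT difference of C40A11.10 was 0.44 ± 0.61 without 15C-G2 and 0.50 without 23C-G6.

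Within the heat period the level was fitted as a straight line over 23C-G1 to G6. C40A11.7 fell by 1.13 log2 units per generation in the mutant (SE 0.10), a factor of 2.19 per generation, and by 0.68 in WT (SE 0.10), a factor of 1.60. For C40A11.6 the fall was a factor of 1.61 per generation in the mutant and 1.40 in WT. For C40A11.10 the fitted slope was 0.55 ± 0.14 (SE) in the mutant, a factor of 1.46 upward per generation, and 0.40 ± 0.14 in WT, a factor of 1.32. The WT slope rested on single libraries, since it was 0.17 ± 0.17 without 23C-G6 and 0.58 without 23C-G5. The fall was not even over the generations. In the mutant, C40A11.7 lost a factor of 1.02 from 15C-G3 to 23C-G1, 1.54 to G2, 2.54 to G3, 2.70 to G4, 1.70 to G5 and 2.78 to G6.

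After the return, siRNA over C40A11.7 came back in part in both genotypes. C40A11.7 rose in the mutant by factors of 1.95, 1.58 and 1.75 from 23C-G6 through p15C-G3, and in WT by 1.45, 1.62 and 1.12. Even so, its mutant mean after the return, 44.8 RPKM, was only 1.23 times the mean of late heat. C40A11.6 in WT rose 3.00 times from a late-heat mean of 7.53 ± 2.22 RPKM (SD, n = 3) to 22.6 RPKM, and in the mutant its mean hardly moved, from 15.5 ± 3.95 to 14.4 RPKM. C40A11.10 fell from 983 ± 539 RPKM (SD, n = 3) in late heat to 361 RPKM in the mutant and from 971 ± 734 to 666 RPKM in WT.

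C40A11.6 and C40A11.7 are not fully separate measurements. When the RPKM were turned back into steps of 1 read, nearly all values of both genes below 60 steps were either whole or at 0.5 (within 0.1). The lengths were chosen for such a match, so only the match between the genes is read here. In the 19 libraries in which both genes were in that range, both were whole in 10, both were at 0.5 in 9, and in none did they differ (largest gap over all 24 libraries 0.044 steps). This is the pattern of reads that match both genes and were divided equally between them. Over C40A11.8 all 17 values in the same range were whole. At the inferred length of 191 bases, 6 of 17 such values over C40A11.10 were whole and 11 were at 0.5. Its fraction matched that of C40A11.7 in 7 of the 12 libraries in which both were in range. A longer length that would make its values whole was not tried. Whether C40A11.10 holds divided reads therefore cannot be told, and which gene it would share them with was not tested. The ratio of C40A11.6 to C40A11.7 in RPKM was not fixed, however. It was 0.180 to 0.202 in the mutant before heat, 0.290 to 0.342 in WT before heat, and ranged up to 0.871 and 1.22 in late heat, where both genes had few reads.

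Subtracting the steps of C40A11.6 from those of C40A11.7 removes reads divided equally, and leaves reads that C40A11.7 has beyond its neighbour. This measure, chosen after the values were seen, was 385 ± 43.5 reads per 1000000 implied reads (SD, n = 3) in the mutant before heat and 36.4 ± 9.11 in WT. In early heat it was 211 ± 127 and 37.2 ± 15.97, and in late heat 12.4 ± 13.0 and 6.14 ± 7.83. After the return it was 18.8 ± 8.90 in the mutant and 8.11 ± 5.74 in WT. It was lowest in late heat in both genotypes, as was the RPKM of C40A11.7.

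**Figure D3:**
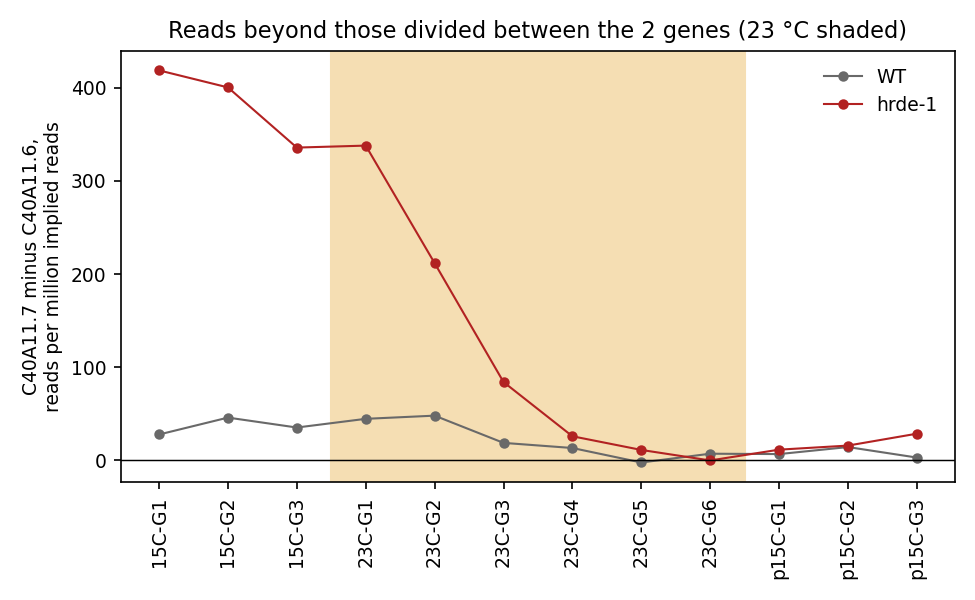
Reads over C40A11.7 minus reads over C40A11.6, per 1000000 implied reads, in each generation (1 library per point; WT grey, hrde-1 red, 23 °C shaded). The mutant starts between 336 and 418, and from 23C-G4 on both genotypes stay under 29.

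It was then asked whether neighbouring genes moved with them. The flanking genes were taken by position: all 6 other C40A11 genes and the 10 nearest tested genes on either side, 23 genes in all from 2095600 to 2204137. Their siRNA levels were low, since 15 of the 23 had a mean under 10 RPKM and their median was 4.83 RPKM. A gene was called when limma gave an adjusted p of at most 0.1 and a difference of at least 2-fold.

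C40A11.8, which lies beside C40A11.7 on the same strand, had a course like that of the coding pair within the mutant but not within WT. It had 132, 135 and 141 RPKM in the first WT generations, 208, 209, 160.5, 194, 157 and 122 at 23 °C, and 67.2, 80.4 and 84.1 after the return. The mutant had 213, 268 and 254 RPKM, then 175, 104, 74.7, 35.1, 42.8 and 34.6, then 52.9, 51.8 and 67.5. In late heat it was 4.21 times lower in the mutant than in WT, with 37.5 ± 4.58 against 158 ± 36.0 RPKM (SD, n = 3; log2 difference -2.03 ± 0.22 SE, limma adjusted p = 4.5e-07).

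In the mutant C40A11.8 fell at 23 °C by 2.19 on the log2 scale (SE 0.27, limma adjusted p = 1e-05) and stayed lower after the return (-2.08 ± 0.22, limma adjusted p = 3.2e-06). Its slope over the 6 generations of heat was -0.47 ± 0.07 log2 units per generation in the mutant (limma adjusted p = 0.0014). In WT the change at 23 °C was 0.28 ± 0.27 (limma adjusted p = 0.69), and the difference between the genotypes was -2.47 ± 0.38 (limma adjusted p = 0.00066). The after-heat difference between genotypes, -1.26 ± 0.32 (limma adjusted p = 0.055), was lost in 8 of 18 alternatives, with adjusted p from 0.022 to 0.15 over them. Before heat it was higher in the mutant by 0.84 ± 0.22 on the log2 scale (limma adjusted p = 0.016), under 2-fold. Its phase means in the mutant were below those of WT from early heat on, whereas those of the coding pair stayed above WT through late heat.

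Of the other near neighbours, the 3 genes on the plus strand between the cluster genes carried little siRNA. C40A11.4, C40A11.3 and C40A11.2 had means over all libraries of 8.18, 4.68 and 4.34 RPKM, and none was called in any comparison. To the left, C40A11.5 (mean 2.80 RPKM) and math-37 (mean 4.83 RPKM), a gene of the MATH domain family, were not called either. To the right, math-18 (mean 2.49 RPKM) was not called. These levels lie at or near the lowest step that the table holds. Relative to depth, math-18 was at its lowest step in 18 of 24 libraries, math-37 in 21, C40A11.5 in 20, C40A11.3 in 15, C40A11.2 in 13 and C40A11.4 in 4, so differences between such libraries were not detectable at this depth.

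sdz-28 (R52.1), the second tested gene to the left of C40A11.10, had 16.1 ± 3.49 RPKM (SD, n = 3) in the mutant before heat and 5.58 ± 1.43 after it. It was called lower after heat in the mutant (-1.38 ± 0.40, limma adjusted p = 0.092) and, in phase IV, lower than WT (-1.59 ± 0.40, limma adjusted p = 0.01). The first of these calls was lost in 6 of 10 alternatives and the second with a pseudocount of 10 RPKM. It was also called lower at 23 °C in the mutant (-1.02 ± 0.36, limma adjusted p = 0.031), a call lost in 5 of 13.

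C33C12.11, the third tested gene to the right, fell after heat in the mutant from 204 ± 20.5 to 92.5 ± 6.48 RPKM (SD, n = 3; -1.13 ± 0.21, limma adjusted p = 0.0031) and in WT had 171 ± 26.8 and 181 ± 24.8 RPKM. The difference between genotypes was -1.22 ± 0.30 (limma adjusted p = 0.05) and was lost in 7 of 17 alternatives. C33C12.4, the fourth to the right, went the opposite way. In the mutant it rose from 12.9 ± 11.5 RPKM before heat to 147 ± 10.9 in late heat and 75.7 ± 36.9 after the return (SD, n = 3), while WT group means stayed between 7.66 and 14.4 RPKM. It was called higher than WT in phases II, III and IV, by 2.41 ± 0.59, 3.95 ± 0.59 and 2.22 ± 0.59, with limma adjusted p of 0.011, 3.9e-05 and 0.016. In the mutant it rose at 23 °C by 3.45 ± 0.50 (limma adjusted p = 7.2e-05) and was still up after the return by 2.70 ± 0.59 (limma adjusted p = 0.012), a call lost without the 15C-G2 library of the mutant (highest limma adjusted p 0.12).

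Farther off, R52.6 rose at 23 °C in WT by 1.50 ± 0.39 and in the mutant by 1.66 ± 0.39 (limma adjusted p = 0.016 and 0.008), both lost with a pseudocount of 10 RPKM. C33C12.8 fell at 23 °C in WT by 1.00 (SE 0.27, limma adjusted p = 0.019), a call lost in 6 of 13 alternatives. These 2 genes and those above are all the flanking genes that were called.

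As counts, after heat in the mutant 1 of the 23 flanking genes was called higher and 3 lower, where 2.03% of all tested genes were called in either direction. In WT limma called none after heat (3 at an unadjusted p under 0.05), where 1.87% of all genes were, and the difference between genotypes was called lower for 2, where 1.23% of all were. At 23 °C, 2 were called in WT and 4 in the mutant, beside 6.58% and 6.41% of all genes, and the genotype difference was called for 2, beside 2.52%. For the slope over the heat generations, none was called in WT (0 at an unadjusted p under 0.05) and 1 in the mutant, beside 0.519% and 1.17%. By phase, the mutant differed from WT for 0 (4 at an unadjusted p under 0.05), 1, 2 and 2 of the 23 in phases I to IV, beside 7.82%, 5.70%, 5.85% and 7.99% of all genes. The median after-heat change of the 23 in the mutant was -0.04 and that of all tested genes -0.03 (log2).

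**Figure D4:**
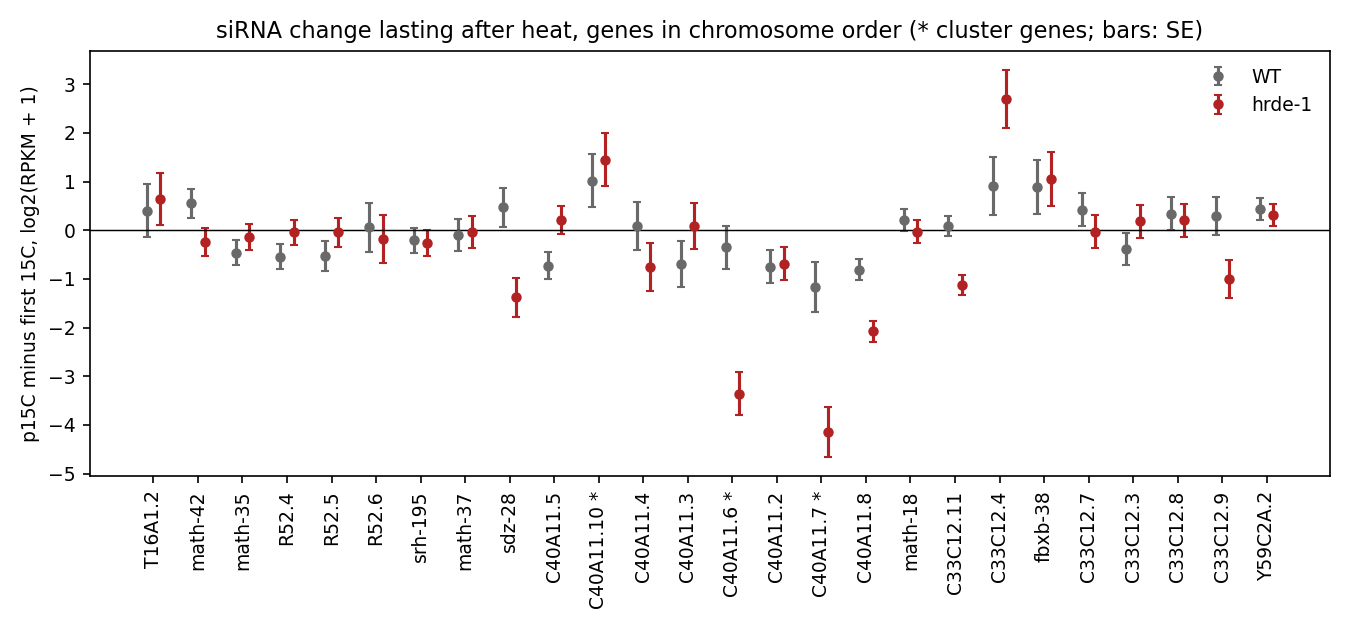
Change in log2(RPKM + 1) of the generations after the return minus the first 15 °C generations, with bars of 1 SE, for the 23 flanking genes and the 3 cluster genes (asterisk) in chromosome order, WT in grey and hrde-1 in red. In the mutant C40A11.6, C40A11.7 and C40A11.8 lie at -3.36, -4.14 and -2.08, C40A11.10 at 1.45, and C33C12.4 at 2.70.

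Over the 24 libraries, which share genotype and heat, the log2 levels of C40A11.6 and C40A11.7 had a Pearson r of 0.95, and with C40A11.10 they had -0.76 and -0.74. Within the 12 mutant libraries C40A11.8 had r of 0.94 with C40A11.7, and within the 12 WT libraries 0.26. These are descriptions, and the first also reflects the divided reads.

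Genes averaging 10 RPKM or more were ranked by likeness of pattern. Those whose pattern over the 24 libraries was most like C40A11.6 were C40A11.7, C13B9.4 (r = 0.94), T20D3.2 (0.86), Y55F3AM.11 (0.84) and Y75B8A.19 (0.83). For C40A11.7 they were C40A11.6, C13B9.4 (0.93), Y55F3AM.11 (0.85), dpy-31 (0.85), which encodes an astacin metalloprotease of cuticle collagen processing, and Y75B8A.19 (0.84). C13B9.4 on chromosome III had 236 ± 15.6 RPKM in the mutant before heat and 46.9 ± 13.0 after it, against 54.1 ± 6.83 and 50.3 ± 6.27 in WT (SD, n = 3). T20D3.2 on chromosome IV had 263 ± 33.8 and 34.7 ± 12.4 in the mutant against 54.1 ± 11.02 and 27.7 ± 3.91 in WT. The same start above WT and end near WT was thus seen at genes on other chromosomes, which were picked for that likeness.

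The genes most like C40A11.10 were fbxb-37 (r = 0.93), a gene of the F-box B family on the same chromosome, C11G6.2 (0.90), Y116F11A.1 (0.89), F55C9.3 (0.89) and T25G12.11 (0.85). F55C9.3 had phase means in the mutant of 266, 590, 1000.02 and 407 RPKM and in WT of 402, 538, 940.3 and 790 RPKM. As for C40A11.10, the means were highest in late heat in both genotypes.

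C40A11.10 belongs to the high-stringent NHG list of the study, that is, heat-inducible genes held down by nuclear RNAi. C13B9.4, the gene outside the cluster most like the coding pair, is on that list too. That list was chosen by the study from mRNA of the same experiment, so it is not independent evidence of direction. Of its 37 other measured genes, 1 was called higher and 14 lower after heat in the mutant, where 2.03% of all tested genes were called in either direction, with a median of -0.69 beside -0.03 over all tested genes. C44B12.6 and F57G4.9 were among those lower, by -3.28 ± 0.28 and -3.22 ± 0.34 (limma adjusted p = 1.8e-07 and 2.2e-06). At 23 °C in the mutant 4 were called higher and 7 lower, beside 6.41% of all genes, and glit-1, which encodes a gliotactin-like protein, rose by 3.63 ± 0.32 (limma adjusted p = 1.7e-07). In phase III 2 were called higher and 18 lower than WT, beside 5.85% of all genes. With 1.45 after heat and 2.31 at 23 °C in the mutant, C40A11.10 lay on the side of the fewer.

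Genes of the germline siRNA pathway (Argonautes, RNA-dependent RNA polymerases and mutator genes) were read as a further list. Of 30 measured, none was called by limma after heat or at 23 °C in either genotype (8 and 1 had an unadjusted p under 0.05 after heat in WT and the mutant, and 10 and 11 at 23 °C), and in phase IV 1 was lower than WT, the hrde-1 gene itself.

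Markers of cell types that whole animals hold were read in the same way, with the limit that siRNA over a marker gene is not its mRNA. After heat in the mutant none of 10 sperm, 10 oocyte and early embryo, 10 germline, 10 intestine, 6 muscle and 5 epidermis markers was called by limma (an unadjusted p under 0.05 was reached by 2, 0, 0, 2, 0 and 1 of them). Summed germline markers were at 1860 to 2540 RPKM in the mutant before heat and 2000 to 2240 after it, and oocyte and early embryo markers at 1290 to 1320 and 1290 to 1380. Sperm markers were at 87.5 to 542 and 275 to 586 RPKM, and intestine markers at 19.0 to 35.3 and 31.2 to 35.5. Muscle markers were at 15.6 to 19.4 and 12.1 to 15.7 RPKM, and epidermis markers at 15.5 to 22.2 and 15.9 to 19.5. Before heat limma called 5 of the 51 markers between mutant and WT, beside 7.82% of all tested genes, and nothing is read from that count. The sperm genes spe-41 (-1.71 ± 0.29) and fer-1 (-1.39 ± 0.41) were lower. So were the myosin heavy chain gene unc-54 (-2.90 ± 0.44) and the cuticle collagen gene dpy-13 (-1.26 ± 0.23), and the sperm gene ssp-16 (1.56 ± 0.51) was higher. The limma adjusted p ran from 4.6e-05 to 0.061 over these 5. Summed muscle markers were then at 28.2 to 32.8 RPKM in WT and 15.6 to 19.4 in the mutant, and epidermis markers at 23.6 to 33.3 and 15.5 to 22.2. Summed germline markers were at 1460 to 1810 RPKM in WT, and oocyte and early embryo markers at 963 to 1110, both below the mutant ranges. These 4 sums did not overlap between the genotypes. As 45.8% of all tested genes had phase I groups without overlap, nothing is read from that either. Sperm and intestine sums did overlap, at 140 to 182 and 19.2 to 27.9 RPKM in WT. In phases II, III and IV 4, 2 and 4 of the 51 markers were called, beside 5.70%, 5.85% and 7.99% of all genes. The part of these markers in the results was not tested. Collection age differed between 15 °C and 23 °C, so age and temperature cannot be told apart for the heat period, whereas the first and last generations were collected at the same age.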

How the data were processed

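Small RNA was sequenced in 24 libraries (WT and hrde-1, 12 generations each) by a cloning procedure that does not need a 5′ monophosphate. The authors aligned the reads with Bowtie 0.12.7 to the WS190 mRNA database, kept perfect antisense alignments, and deposited RPKM. The sources used here do not give how reads matching several genes were treated. Only the second biological repeat was analysed here. Each gene was represented by its transcript of highest mean. Positions come from WBcel235, not WS190, matched by sequence name (19573 of 20167 genes placed), and none was converted. Library totals were inferred from the smallest steps in the values, and step lengths from the best match to whole reads or steps of 0.5 reads.

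The 19839 genes averaging 1 RPKM or more were fitted with limma 3.58.1 (R 4.3.3) on log2(RPKM + 1) with a trended prior, 2-sided, with Benjamini-Hochberg adjustment over all of them. A call needed an adjusted p of at most 0.1 and, except for slopes, a 2-fold difference. The fold on this scale understates changes of low genes. The fit was tested on simulated data. Libraries within a group are successive generations, so p-values measure that spread only. The members and lists were chosen with earlier results of these data known. Named genes were the 3 members, the hrde-1 gene, the flanking genes by position (the nearest 3 on each side and any called), the 5 likest genes by Pearson r, and at most 4 called genes per list and comparison. Alternatives were a pseudocount of 10 RPKM, no filter, a filter at 10 RPKM, median-ratio scaling, a block by generation and 23C-G1 kept. Further ones took 1 inferred read off each value of the 3 members and C40A11.8, or left out each library. Versions were python 3.11.15, pandas 2.3.3, numpy 2.4.6 and matplotlib 3.10.9.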

Additional observations from a re-analysis of the deposited data

Results flagged for a closer look

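The difference between genotypes in the response to heat was called by limma for 3 flanking genes. For C40A11.8 it was -2.47 (log2) at 23 °C and -1.26 after the return, for C33C12.11 it was -1.22 after the return, and for C33C12.4 it was 2.99 at 23 °C (limma adjusted p = 0.00066, 0.055, 0.05 and 0.026). The after-heat calls of C40A11.8 and C33C12.11 were lost in 8 of 18 and 7 of 17 alternatives. The C33C12.4 call was lost in 1 of 21, without the 15C-G2 library of the mutant. The 23 °C call of C40A11.8 was kept in all 22.

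Among the 5 libraries 23C-G2 to G6 of a genotype, 1 library lay apart from the other 4 in 2 of 18 groups looked at, where chance gives about 1 in 20. They were C40A11.6 in the mutant, at 86.7 RPKM in 23C-G2, and math-18 (C40A11.1) in the mutant, at 5.55 RPKM in 23C-G2. For C40A11.6 the group is a falling course, in which the first generation is the highest. The math-18 value is 2.00 times its lowest step relative to depth, so it stands 1 step above libraries at that lowest step.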

How the results depend on the processing

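For the 3 cluster genes, 202 of 204 values under the alternatives other than leaving out a library moved by less than 1 SD. This SD is the fitted spread of single libraries. The exceptions were C40A11.6 with a pseudocount of 10 RPKM, at -2.69 after heat in the mutant and -2.45 for the difference between genotypes. For slopes the SD is wide beside the SE, so a slope could hardly count as moved. With that pseudocount the WT slope of C40A11.6 went from -0.48 ± 0.09 (SE) to -0.31 and that of C40A11.7 from -0.68 ± 0.10 to -0.54. The mutant slopes went from -0.69 to -0.55 and from -1.13 to -1.01, and those of C40A11.10 hardly changed. Leaving out single libraries gave -4.51 to -3.79 for C40A11.7 and -3.75 to -2.93 for C40A11.6 after heat in the mutant, and for C40A11.10 a phase III difference of -0.53 to 0.80, of either sign, with the lowest without 23C-G5 of WT. The phase IV difference ranged from -1.03 to -0.21 for C40A11.6, from -0.22 to 0.49 for C40A11.7 and from -1.38 to -0.59 for C40A11.10, the phase III difference of C40A11.7 from 0.40 to 1.48, and the after-heat change of C40A11.6 in WT from -0.75 to -0.06. With a pseudocount of 10 RPKM the called genes were 914, 709 and 943 in phases I, II and IV, 146 after heat in WT, and 623 and 559 at 23 °C in WT and the mutant, fewer than 1551, 1131, 1586, 371, 1306 and 1271. Leaving out single libraries moved the called genes to 115 to 317 after heat in WT (lowest without p15C-G1), 289 to 629 after heat in the mutant (403 with all; highest without 15C-G3), 4 to 211 for the slope in WT (103 with all; lowest without 23C-G1, highest without 23C-G5) and 67 to 230 for the slope in the mutant (232 with all; lowest without 23C-G1). Same-numbered generations of the 2 genotypes deviated together with r from -0.016 to 0.367, over 0.1 in 10 of 12 pairs. The main fit did not take the generation number as a pairing, and a fit that did was run as an alternative. With the generation as a replicate block the called genes were 1684, 1170, 1236 and 1685 in phases I to IV and 307 for the after-heat difference, and no call of a flanking gene in these 5 comparisons was lost. The other comparisons were not run with the block. For the 3 cluster genes the block left the values as they were and narrowed the SE, for the after-heat difference of C40A11.10 between genotypes from 0.77 to 0.42. The SE of the phase I difference of C40A11.10 went from 0.54 to 0.30. That of the phase IV difference of C40A11.6, -0.64, went from 0.44 to 0.22. Depth limits C40A11.6 most, with 1.5 inferred reads at the lowest. These low counts may include a floor common to all values, which was not tested. Taking off 1 read gave -3.59 ± 0.51 (SE) for C40A11.6 after heat in the mutant, against -3.36 ± 0.44.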

Other observations

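The low 23C-G5 value of C40A11.10 between high G4 and G6 values was seen in few genes, but not in C40A11.10 alone. In 17 of 19839 tested genes (0.0857%), C40A11.10 among them, G5 was at least 2-fold lower than both G4 and G6 in both genotypes on the scale of RPKM + 1, a criterion set after its values were seen. The gene most like C40A11.10 in pattern, fbxb-37 (T16A1.8), had the same dip. It had 118, 55.3 and 306 RPKM in G4, G5 and G6 of WT and 211, 89.7 and 238 RPKM in the mutant. F55C9.3, also picked for likeness over these libraries, was lower in G5 too, by less than 2-fold from G4. The gene fbxb-37 lies on the same strand of chromosome II at 2092578 to 2093876, 42.7 kb from C40A11.10.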
